A study of Mus musculus with 16 samples.

Results

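The core circadian clock genes were examined in kidney and liver RNA of aged mice after knockdown of *Fos*. They are 10 of the 24984 genes in the count tables, namely the activators *Arntl*, *Clock* and *Npas2* and the repressors *Per1*, *Per2*, *Per3*, *Cry1*, *Cry2*, *Nr1d1* and *Nr1d2*. The genes were listed by their known place in the clock, and the list was chosen by measured values of the shFOS against shNT comparison in kidney and liver, which were already known. Values of that comparison are therefore given below as a description, without a test. All 10 genes passed the filter on low counts in every comparison.

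The series holds 16 libraries, with 4 for each tissue and treatment. Female C57BL/6 mice of wild-type genotype, labelled as 24 months old, had received AAV8 intravenously, an adeno-associated virus vector that expressed a short hairpin RNA against *Fos* (group shFOS) or a non-targeting hairpin (group shNT). Every mouse thus carried a vector, and no uninjected group was analysed here. According to the methods the mice were injected at that age and the organs were taken later, from animals kept under a day and night cycle, and the hour of collection is not given in the sources used here. The promoter that drove the hairpin is likewise not given. The labels number the libraries of a group from 1 to 4 but do not say whether the kidney and the liver with the same number came from the same mouse, so p-values measure the spread between these samples.

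The mammalian clock is a loop of transcription and repression that runs in most cells of the body. ARNTL (also called BMAL1) pairs with CLOCK or NPAS2, and the pair switches on genes with E-box sequences, among them the *Per* and *Cry* genes. PER and CRY proteins return to the nucleus and inhibit the pair, while the nuclear receptors NR1D1 and NR1D2 (REV-ERBα and REV-ERBβ), themselves switched on by it, repress *Arntl*. Because of this arrangement, *Arntl* and *Nr1d1* transcripts peak at opposite times of day in liver and kidney.

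Counted reads ranged from 14194543 to 15534665 in the 8 kidney libraries and from 16652150 to 18300277 in the 8 liver libraries. The lowest count of any core clock gene in any library was 35, for *Nr1d1*. Kidney markers summed to at most 2.33 CPM (read counts relative to library size) in any liver library, while hepatocyte markers summed to 176 to 988 CPM in kidney and 44608 to 189714 CPM in liver. *Fos*, the target of the hairpin, was at 6.71, 5.26, 4.23 and 5.29 CPM in the shNT kidneys and at 2.57, 4.12, 3.93 and 2.30 CPM in the shFOS kidneys. The groups did not overlap, and the log2 fold change was −0.73 ± 0.25 (SE, n = 4 per group, edgeR quasi-likelihood test, adjusted p = 0.0955). In liver the log2 fold change of *Fos* was −0.47 ± 0.38 (edgeR, adjusted p = 0.778) with overlapping groups.

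The promoters of the clock genes were read from RefSeq (mouse build GRCm38.p6, 250 bases before to 50 after each start site). Of the 10 genes, 9 had an entry there, with 13 windows, and *Per2* had none. The windows were searched on both strands for the E-box CACGTG and its variant CACGTT, which bind ARNTL with CLOCK, for the element TAGGTCA (RORE) and its variant TGGGTCA, which bind NR1D1 and the ROR receptors, for the D-box TTATGTAA and its variant TTACGTAA, which bind DBP and NFIL3, for the cyclic AMP element TGACGTCA and for the AP-1 site TGAGTCA, which binds FOS with JUN. The stretches around the matches are shown because they carry the sequence by which activators and repressors are linked, with the matched letters in capitals. The RORE of *Arntl* began 30 bases after a start site (chr7:113207530-113207558, + strand, within the transcript).

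Arntl: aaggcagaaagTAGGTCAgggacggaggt

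The E-box of *Per1* (chr11:69098743-69098828, + strand), the E-box and its variant in *Cry1* (chr10:85185069-85185173, − strand) and the variant in *Cry2* (chr2:92434190-92434275, − strand) and *Nr1d1* (chr11:98775378-98775445, − strand) lay before the start sites. On these strands the variant CACGTT reads AACGTG.

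Per1: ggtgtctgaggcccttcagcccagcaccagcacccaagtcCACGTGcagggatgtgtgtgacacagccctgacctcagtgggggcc
Cry1: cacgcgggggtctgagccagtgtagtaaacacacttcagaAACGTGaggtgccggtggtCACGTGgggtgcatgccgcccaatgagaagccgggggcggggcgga
Cry2: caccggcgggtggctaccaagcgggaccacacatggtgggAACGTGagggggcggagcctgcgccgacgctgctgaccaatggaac
Nr1d1: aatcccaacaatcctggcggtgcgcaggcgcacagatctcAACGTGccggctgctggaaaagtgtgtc

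*Per3* held the D-box in 2 copies (chr4:151044776-151044910, − strand).

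Per3: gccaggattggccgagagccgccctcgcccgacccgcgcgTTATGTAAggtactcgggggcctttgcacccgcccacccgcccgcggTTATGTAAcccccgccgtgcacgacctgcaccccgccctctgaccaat

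Among 32851 promoters of the same length, 7.15% held CACGTG, 4.68% CACGTT, 2.61% TAGGTCA, 3.98% TGGGTCA, 0.938% TTATGTAA, 0.119% TTACGTAA, 1.79% TGACGTCA and 5.20% TGAGTCA. None of the 9 clock genes with an entry held TGGGTCA, TTACGTAA, TGACGTCA or TGAGTCA in these windows. A match is a match of letters only.

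The comparison the series was made for asks how knockdown of *Fos* changed the aged kidney and liver. CPM were scaled by the trimmed mean of M-values within each tissue, and values below are given in the order of libraries 1 to 4 of the group. In the kidney the 3 activators had higher means and 6 of the 7 repressors had lower means in shFOS than in shNT libraries, with *Cry1* as the exception. *Arntl* and *Npas2* were higher in every shFOS kidney than in any shNT kidney, and *Per3* was lower in every one. Over all 14892 genes tested in the kidney, 17.2% did not overlap between the groups, with 9.16% higher and 8.04% lower in shFOS, and nothing is read from 3 of 10 clock genes because this contrast helped to choose them.

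*Arntl*, the obligate partner in the activating pair (ENSMUSG00000055116.8, mm10 chr7:113207465-113314126, + strand), was at 26.7, 13.95, 24.8 and 17.2 CPM in shNT kidneys and at 43.4, 38.8, 49.1 and 41.5 CPM in shFOS kidneys. Its lowest shFOS value lay well above its highest shNT value, the ratio of the means was 2.09 and the log2 fold change was 1.06 ± 0.20 (SE, n = 4 per group). *Npas2*, which can take the place of CLOCK, was at 16.8, 11.8, 19.5 and 12.7 CPM in shNT kidneys and at 35.2, 26.5, 36.0 and 29.7 CPM in shFOS kidneys. It moved much like *Arntl*, with groups apart, a ratio of 2.10 and a log2 fold change of 1.07 ± 0.18. *Clock* was at 59.8, 42.7, 50.3 and 53.6 CPM in shNT kidneys and at 58.2, 75.8, 97.1 and 90.2 CPM in shFOS kidneys. Its groups overlapped through library 1 of each group, and the log2 fold change was 0.64 ± 0.17.

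*Per3*, the period gene that is dispensable for rhythm (ENSMUSG00000028957.12, chr4:151003652-151044665, − strand), was at 27.7, 25.7, 16.9 and 28.3 CPM in shNT kidneys. In shFOS kidneys it was at 9.38, 8.11, 5.44 and 6.91 CPM. Every shFOS kidney was below every shNT kidney, the shNT mean was 3.30 times the shFOS mean and the log2 fold change was −1.72 ± 0.21. *Per2*, a repressor that the loop requires, was at 36.6, 16.8, 13.2 and 44.4 CPM in shNT kidneys and at 17.2, 16.1, 13.6 and 11.8 CPM in shFOS kidneys. The shNT kidneys fell into a high pair (libraries 1 and 4) and a pair within the shFOS range (libraries 2 and 3), and the log2 fold change was −0.92 ± 0.37. *Per1*, the period gene that also answers acute signals, was at 53.5, 72.7, 55.4 and 167 CPM in shNT kidneys and at 81.2, 60.3, 66.4 and 47.0 CPM in shFOS kidneys. The value of 167 CPM stood apart from the other shNT kidneys, and the log2 fold change of −0.45 ± 0.36 became 0.076 without that library.

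*Cry1*, the stronger cryptochrome repressor, was at 21.2, 4.31, 6.71 and 9.02 CPM in shNT kidneys and at 15.1, 17.7, 9.58 and 11.9 CPM in shFOS kidneys. Library 1 of shNT lay above all shFOS values and the other 3 below all of them, and the log2 fold change was 0.40 ± 0.44. *Cry2*, its paralog, was at 25.8, 18.1, 18.0 and 35.2 CPM in shNT kidneys and at 17.4, 18.2, 13.4 and 12.1 CPM in shFOS kidneys. The overlap came from library 2 of shFOS, and the log2 fold change was −0.66 ± 0.24.

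*Nr1d1*, the repressor of *Arntl* (ENSMUSG00000020889.11, chr11:98767932-98775333, − strand), was at 14.6, 72.7, 75.7 and 92.2 CPM in shNT kidneys and at 16.5, 36.7, 26.6 and 23.7 CPM in shFOS kidneys. Library 1 of shNT was the lowest of all 8 kidneys, whereas the other 3 shNT kidneys were above every shFOS kidney, and the log2 fold change was −1.30 ± 0.48. *Nr1d2*, its paralog with overlapping function, was at 49.6, 87.2, 75.9 and 103 CPM in shNT kidneys and at 32.6, 52.9, 56.1 and 44.8 CPM in shFOS kidneys. Again the overlap came from library 1 of shNT, and the log2 fold change was −0.76 ± 0.23.

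**Figure D1:**
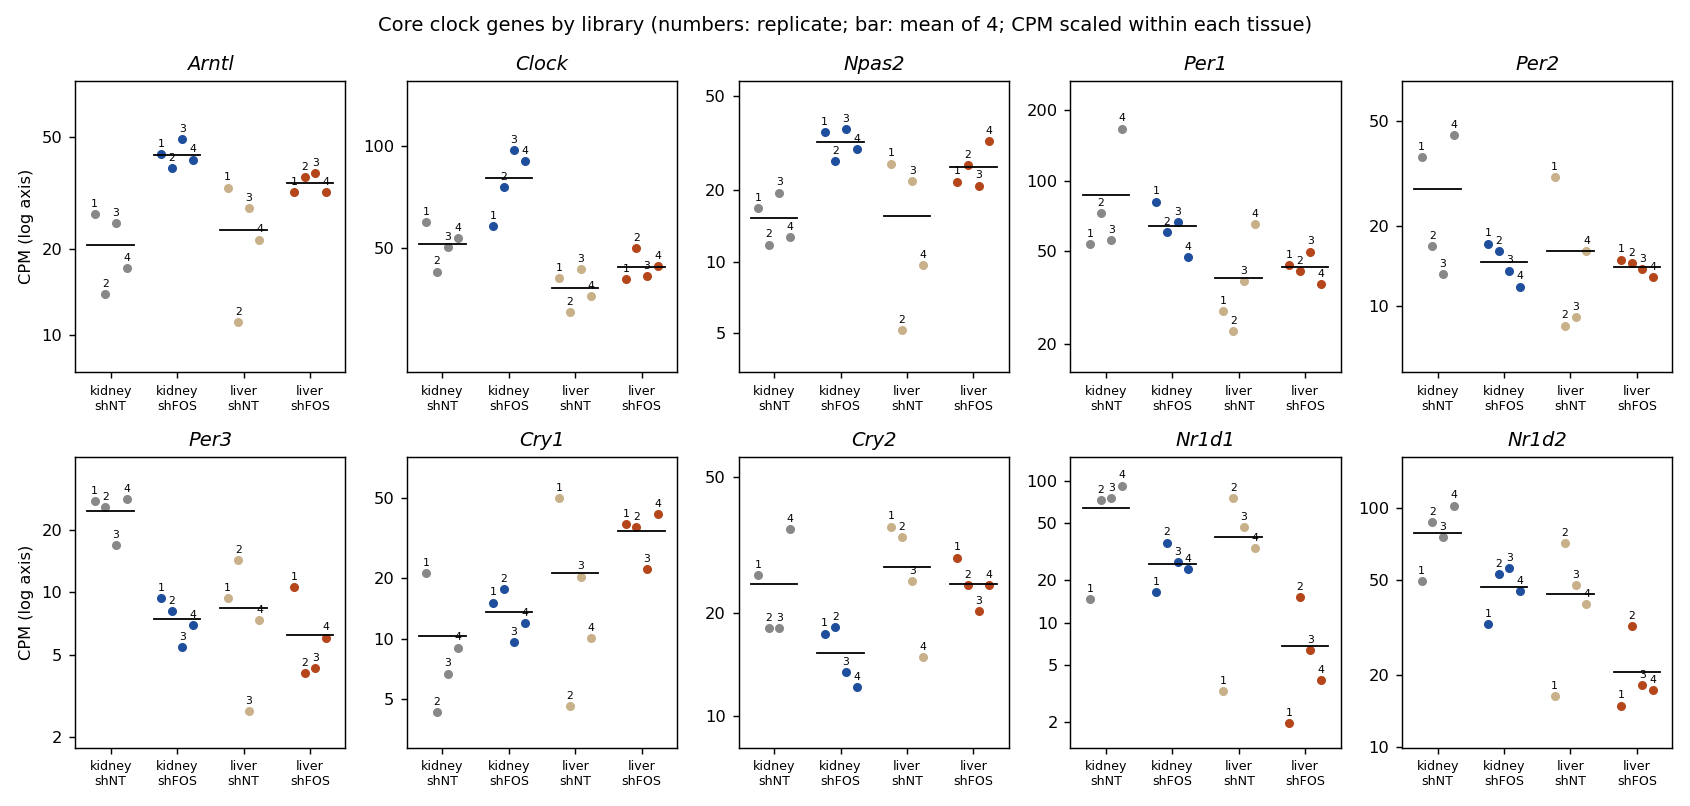
CPM (log axis, scaled within each tissue) of the 10 core clock genes in each library, by tissue and treatment, with the replicate number beside each point and a bar at the mean of 4. In the kidney, *Arntl* and *Npas2* of all shFOS libraries lie above all shNT libraries and *Per3* lies below, while *Nr1d1* of library 1 is the lowest point of each of the 4 groups.

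For *Clock*, *Cry1*, *Nr1d1* and *Nr1d2*, library 1 of the shNT kidneys thus lay within the shFOS range or beyond its far end. Without it, 7 of the 10 clock genes did not overlap between the kidney groups, with *Arntl*, *Clock*, *Cry1* and *Npas2* higher and *Nr1d1*, *Nr1d2* and *Per3* lower in shFOS, while 23.4% of all genes did not overlap. Without library 1 of shFOS, *Clock* joined *Arntl*, *Npas2* and *Per3* and 41.5% of all genes did not overlap. Without any other single kidney library, *Arntl*, *Npas2* and *Per3* were the genes apart, joined by *Cry2* without library 2 of shFOS. The share of all genes was then 18.6% to 25.3%. Library 1 of shNT was singled out by these same values, so nothing is read from the 7. With 4 genes above 0 and 6 below, the median log2 fold change of the 10 genes was −0.56, against 0.00 over all genes tested, and it was −0.18 without library 4 of shNT. Directions in the kidney were kept by 9 of the 10 genes under each of the 16 alternative settings tried, with *Per1* as the exception.

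Other measures moved with treatment in the kidney. The summed kidney markers (8 of 8 detected) ranged from 11124 to 14614 CPM in shNT and from 15208 to 17460 CPM in shFOS kidneys, and the 3 endothelial markers from 140 to 203 CPM and from 222 to 265 CPM, both without overlap. The 4 lymphocyte markers ranged from 10.96 to 205 CPM in shNT and from 184 to 292 CPM in shFOS kidneys, a sum carried by the antibody joining chain gene *Jchain* (7.28 to 150 CPM in shNT and 176 to 279 CPM in shFOS). The other 3, *Cd3e*, *Cd79a* and *Ms4a1*, summed to 3.67 to 84.4 CPM in shNT and to 8.10 to 15.2 CPM in shFOS kidneys. Macrophage markers overlapped, and the globin genes *Hba-a1* and *Hbb-bs* were listed at 0 in every library. The part of these differences in the clock gene values was not tested, and in whole tissue fewer cells of a type and less RNA per cell cannot be told apart.

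Library 4 of the shNT livers stood apart over all genes. The chi-square per degree of freedom of its counts against the other shNT livers was 273 to 351, and that of the other 21 pairs of libraries within a group 6.26 to 59.8. No clock gene changed direction between the liver groups without it, and the median of the 10 genes was then −0.01.

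In the liver 5 of the 10 clock genes had a positive and 5 a negative log2 fold change, and the groups of none were apart, against 4.31% of the 13144 genes tested there. The median of the 10 genes, with 5 on each side of 0, was 0.00, and that of all genes was −0.01. The widest differences were those of the nuclear receptors. *Nr1d1* was at 3.30, 75.7, 47.2 and 33.3 CPM in shNT livers and at 1.96, 15.1, 6.40 and 3.95 CPM in shFOS livers. Library 1 of shNT was again the lowest of its group and lay within the shFOS range, the other 3 were above every shFOS liver, and the log2 fold change was −2.54 ± 0.87 (SE, n = 4 per group). *Nr1d2* was at 16.4, 71.2, 47.5 and 39.7 CPM in shNT livers and at 14.9, 32.0, 18.2 and 17.3 CPM in shFOS livers. Its libraries took the same order, with library 1 of shNT inside the shFOS range and the rest above it, and the log2 fold change was −1.09 ± 0.42.

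*Arntl* was at 33.05, 11.1, 28.1 and 21.6 CPM in shNT livers and at 31.9, 36.1, 37.2 and 31.8 CPM in shFOS livers. Library 1 of shNT reached the shFOS values and the other 3 were below them, with a log2 fold change of 0.55 ± 0.28. *Npas2* was at 25.9, 5.13, 21.8 and 9.63 CPM in shNT livers and at 21.7, 25.4, 20.9 and 32.2 CPM in shFOS livers. The shNT livers split into a high pair (libraries 1 and 3) that matched shFOS and a low pair, and the log2 fold change was 0.69 ± 0.44. *Clock* was at 40.8, 32.4, 43.4 and 36.3 CPM in shNT livers and at 40.6, 49.95, 41.4 and 44.3 CPM in shFOS livers. It varied least of the activators, with overlapping groups and a log2 fold change of 0.21 ± 0.12.

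*Cry1* was at 50.004, 4.62, 20.4 and 10.1 CPM in shNT livers and at 37.2, 35.9, 22.2 and 41.5 CPM in shFOS livers. The highest and the lowest liver both belonged to shNT, a 10.8-fold range, and the log2 fold change was 0.69 ± 0.61. *Cry2* was at 35.7, 33.2, 24.8 and 14.9 CPM in shNT livers and at 29.0, 24.2, 20.3 and 24.0 CPM in shFOS livers. The shFOS values lay inside the shNT range, and the log2 fold change was −0.15 ± 0.25. *Per1* was at 27.6, 22.7, 37.2 and 64.8 CPM in shNT livers and at 43.5, 40.9, 49.6 and 36.1 CPM in shFOS livers. As in the kidney, library 4 of shNT was the highest of its group, and the log2 fold change was 0.16 ± 0.30.

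*Per2* was at 30.7, 8.42, 9.06 and 16.1 CPM in shNT livers and at 14.98, 14.6, 13.8 and 12.9 CPM in shFOS livers. The 4 shFOS livers spanned a 1.17-fold range and the 4 shNT livers a 3.65-fold range around it, with a log2 fold change of −0.19 ± 0.38. *Per3* was at 9.37, 14.4, 2.65 and 7.30 CPM in shNT livers and at 10.5, 4.06, 4.29 and 6.04 CPM in shFOS livers. The separation of *Per3* seen in the kidney was not present in the liver values, where the groups overlapped and the log2 fold change was −0.43 ± 0.49. Without library 1 of shNT, *Arntl* and *Cry1* were higher and *Nr1d1* and *Nr1d2* lower in shFOS livers without overlap, while 9.13% of all genes did not overlap. Without any other single liver library no clock gene was apart, beside 5.91% to 8.82% of all genes. Library 1 was singled out by these same values, so nothing is read from this omission.

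**Figure D2:**
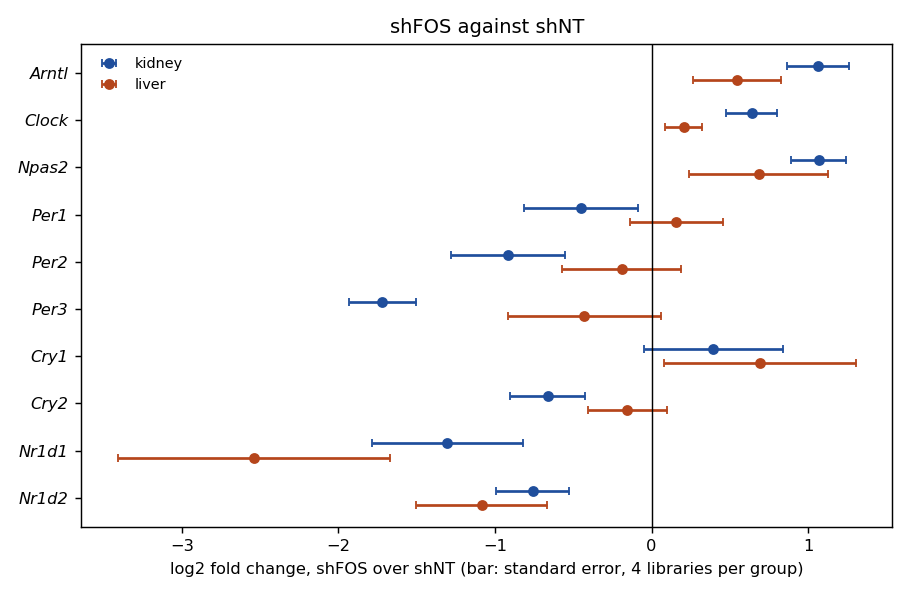
Log2 fold change of shFOS over shNT for the 10 core clock genes in kidney and liver (edgeR), with bars for the standard error and 4 libraries per group. *Per3* lies at −1.72 in kidney and −0.43 in liver, and *Nr1d1* at −1.30 in kidney and −2.54 in liver with the widest bars.

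The differences between the tissues in the treatment contrast (kidney minus liver, log2) were largest in size for *Per3* at −1.31 ± 0.57 (SE) and *Nr1d1* at 1.22 ± 1.02, and the rest lay between −0.75 for *Per2* and 0.50 for *Arntl*. These are descriptions, for the reason given above. Across all 15421 genes, 0% were called for such a difference (edgeR, adjusted p under 0.05), while 16.1% had an unadjusted p under 0.05.

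For most clock genes, variation among libraries of a group was larger in shNT. The SD of log2 CPM was larger in shNT than in shFOS for 9 of 10 clock genes in the kidney, the exception being *Clock*, and for all 10 in the liver. Over all genes this held for 46.1% of kidney and 74.5% of liver genes. The median SD of the clock genes was 0.455 in shNT and 0.327 in shFOS kidneys, where the medians of all genes were 0.188 and 0.205. In the liver it was 0.877 in shNT and 0.247 in shFOS, beside 0.293 and 0.191 for all genes. Without library 4 of the shNT livers the SD was still larger in shNT for all 10, at a median of 1.07, while the median of all genes was 0.220 and the share of genes larger in shNT was 58.8%. *Nr1d1* of shNT livers had the widest range of any clock gene in any group, 23.0-fold from library 1 to library 2. A single library could set the spread in kidney too. Without library 4 of shNT, kidney *Per1* ran from 53.5 to 72.7 CPM, inside its shFOS range of 47.0 to 81.2 CPM. The SD of the kidney groups with a library left out was not tested.

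Levels of different genes were compared per kilobase of exon, as CPM per kb. In shNT kidneys the repressors *Nr1d1* (20.7 ± 11.02, SD, n = 4), *Per1* (15.5 ± 9.56) and *Nr1d2* (14.6 ± 4.13) stood above the other 7 genes, which ran from *Per2* at 4.74 ± 2.59 to *Per3* at 2.57 ± 0.55 with each neighbour inside the other's spread. In shFOS kidneys *Per1* (11.3 ± 2.52), *Nr1d2* (8.62 ± 1.93) and *Nr1d1* (8.40 ± 2.72) still had the highest means, but *Npas2* (6.65 ± 0.94), *Clock* (5.85 ± 1.25) and *Arntl* (5.75 ± 0.58) followed within their spread. *Cry1*, *Per2* with *Cry2*, and then *Per3* (0.777 ± 0.175) formed lower steps whose SD ranges did not touch. In shNT livers *Nr1d1* led at 12.96 ± 9.79 and *Per3* was lowest at 0.877 ± 0.505, and no neighbours in the order were apart by their SD. In shFOS livers *Cry1* (10.2 ± 2.504) and *Per1* (7.55 ± 0.997) led, the activators, *Cry2* and *Nr1d2* lay between 3.21 and 5.23, and *Per2*, *Nr1d1* (2.23 ± 1.88) and *Per3* (0.649 ± 0.313) were lowest.

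The balance of activator and repressor within a library was followed by the log2 ratio of *Arntl* to *Nr1d1* (prior count 2), which cancels the depth of the library. In shNT kidneys it was 0.86, −2.37, −1.60 and −2.41, and in shFOS kidneys 1.39, 0.08, 0.88 and 0.81. Library 1 of shNT had the only positive ratio of its group and lay inside the shFOS range, and all 4 shFOS ratios were positive. In shNT livers it was 3.28, −2.76, −0.75 and −0.62, and in shFOS livers 3.94, 1.25, 2.52 and 2.97. The liver had the same layout, with library 1 of shNT positive and the other 3 negative. The ratio of *Arntl* to *Per3* was −0.05, −0.88, 0.55 and −0.71 in shNT kidneys and 2.19, 2.24, 3.14 and 2.56 in shFOS kidneys. Those groups were apart by more than the range of either, whereas in the liver they overlapped, at 1.81, −0.37, 3.35 and 1.55 in shNT and 1.58, 3.12, 3.08 and 2.38 in shFOS. No test was made, since the treatment contrast chose the genes.

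**Figure D3:**
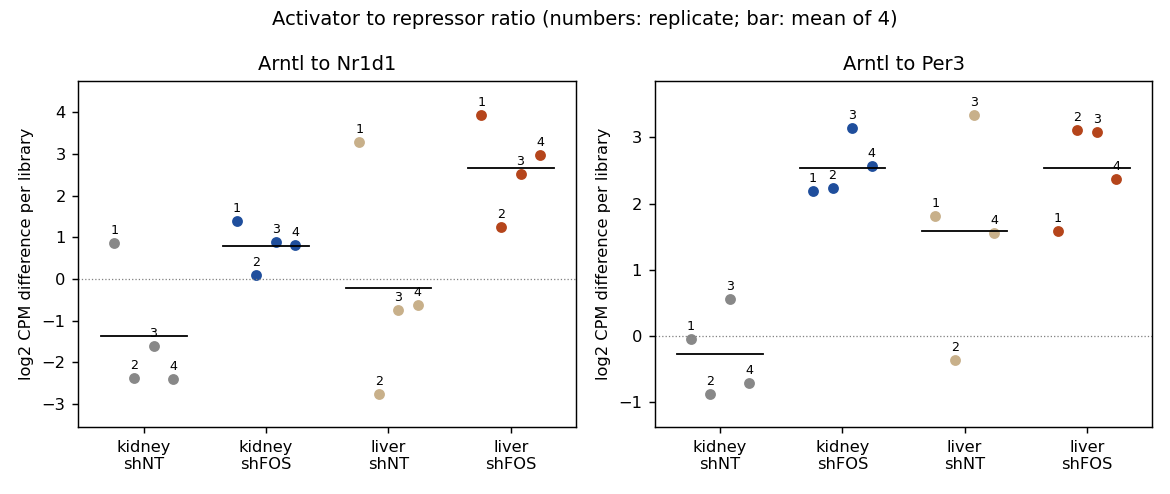
Log2 ratio of *Arntl* to *Nr1d1* (left) and of *Arntl* to *Per3* (right) in each library, by group, with replicate numbers and a bar at the mean of 4. Library 1 of shNT lies with the shFOS libraries for *Nr1d1* in both tissues, and for *Per3* the kidney groups do not overlap.

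Whether a library with more *Arntl* had less of the repressors was tested after each library was centred on its own group mean, which removes the treatment contrast. With 8 libraries a tissue and an exact two-sided permutation within groups, 18 relations were tested, and 0 had a Benjamini-Hochberg adjusted p under 0.05 (smallest 0.333), with 2 at an unadjusted p under 0.05. *Npas2* followed *Arntl* most closely in both tissues, with r = 0.893 in kidney (rho = 0.905, exact permutation p = 0.0278) and r = 0.900 in liver (rho = 0.643, exact permutation p = 0.0556). *Clock* gave r = 0.477 in kidney (rho = 0.476, exact permutation p = 0.158) and r = 0.762 in liver (rho = 0.667, exact permutation p = 0.0486). The sign of r was positive in 3 of 3 pairs of activators in each tissue. *Clock* with *Npas2*, a pair that was not tested, gave r = 0.189 in kidney and 0.820 in liver.

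*Nr1d1* ran opposite to *Arntl*, with r = −0.593 in kidney (rho = −0.571, exact permutation p = 0.299) and r = −0.534 in liver (rho = −0.310, exact permutation p = 0.351). *Nr1d2* gave r = −0.546 in kidney (rho = −0.548, exact permutation p = 0.259) and r = −0.650 in liver (rho = −0.310, exact permutation p = 0.290). *Per3* gave r = −0.402 in kidney (rho = −0.238, exact permutation p = 0.446) and r = −0.570 in liver (rho = −0.571, exact permutation p = 0.337). *Cry1*, although a repressor, ran with *Arntl*, with r = 0.541 in kidney (rho = 0.310, exact permutation p = 0.413) and r = 0.858 in liver (rho = 0.548, exact permutation p = 0.0903). For *Per2* r was 0.028 in kidney (exact permutation p = 0.936) and 0.634 in liver (exact permutation p = 0.405). For *Per1* r was −0.443 in kidney (exact permutation p = 0.571) and 0.325 in liver (exact permutation p = 0.668). For *Cry2* r was −0.060 in kidney (exact permutation p = 0.894) and −0.112 in liver (exact permutation p = 0.882). Of the 21 pairs of an activator with a repressor, 15 had a negative r in the kidney and 11 in the liver.

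Libraries 1 and 2 of shNT deviated most from their group mean in *Arntl* in both tissues. Without them r for *Npas2* was 0.958 in kidney and 0.537 in liver, and r for *Clock* was 0.103 in kidney and 0.638 in liver. For *Nr1d1* r was −0.381 in kidney but turned to 0.602 in liver, and for *Nr1d2* it was −0.311 in kidney and turned to 0.526 in liver, so the negative r of both receptors in liver rested on those libraries. *Cry1* gave −0.769 in kidney and 0.236 in liver without them, so its positive r in kidney rested on them too. *Per3* gave −0.830 in kidney and −0.912 in liver without them. *Per2* then gave −0.825 in kidney and −0.738 in liver, and *Per1* −0.653 and −0.487. For *Cry2* r was −0.817 in kidney but 0.380 in liver.

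The pattern most like that of *Arntl* was sought over all 16 libraries, each centred on its group, among 12727 genes. *Npas2* had the second highest r of all, 0.873, behind *Tmem68* at 0.878 and ahead of *Tcim* (0.832), *Cstf2* (0.832) and *Nfil3* (0.828), the last a repressor that competes with DBP at D-boxes. *Cry1* ranked 19 at 0.759, with a rho of 0.479 and an r of 0.541 in kidney and 0.858 in liver. At the other end *Dbp*, an activator at D-boxes and a direct output of the clock, had the lowest r of all, −0.882, followed by *Abhd4* (−0.846), *Nub1* (−0.844), *Meiob* (−0.840) and *Aifm2* (−0.825). By rank some relations were weaker, with rho at 0.603 for *Tcim*, 0.574 for *Nfil3* and −0.541 for *Meiob*, beside 0.753 for *Npas2* and −0.838 for *Dbp*. These values are a description over libraries of shared depth and scaling, with no test. No library was left out of this ranking.

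Kidney and liver libraries of the same number were then compared within each treatment, a relation chosen after the data were seen. For 9 of the 10 clock genes the deviations from the group mean were positively related over the 8 numbers, the exception being *Cry2* (r = −0.417). *Nr1d1* gave r = 0.931 (rho = 0.786, exact permutation p = 0.0174, adjusted 0.0955 over 10 genes), deviated in the same direction in 8 of 8 numbers and gave r = 0.508 without number 1 of shNT and of shFOS, the 2 farthest from the centre. It was lowest in library 1 of all 4 groups. *Arntl* gave r = 0.903 (rho = 0.810, exact permutation p = 0.0191, adjusted 0.0955), and 0.758 without numbers 1 and 2 of shNT. *Per2* gave r = 0.803 (rho = 0.952, exact permutation p = 0.181) with 8 of 8 numbers in the same direction. None of the 10 passed the adjusted threshold (exact permutation within treatments), and 2 had an unadjusted p under 0.05.

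**Figure D4:**
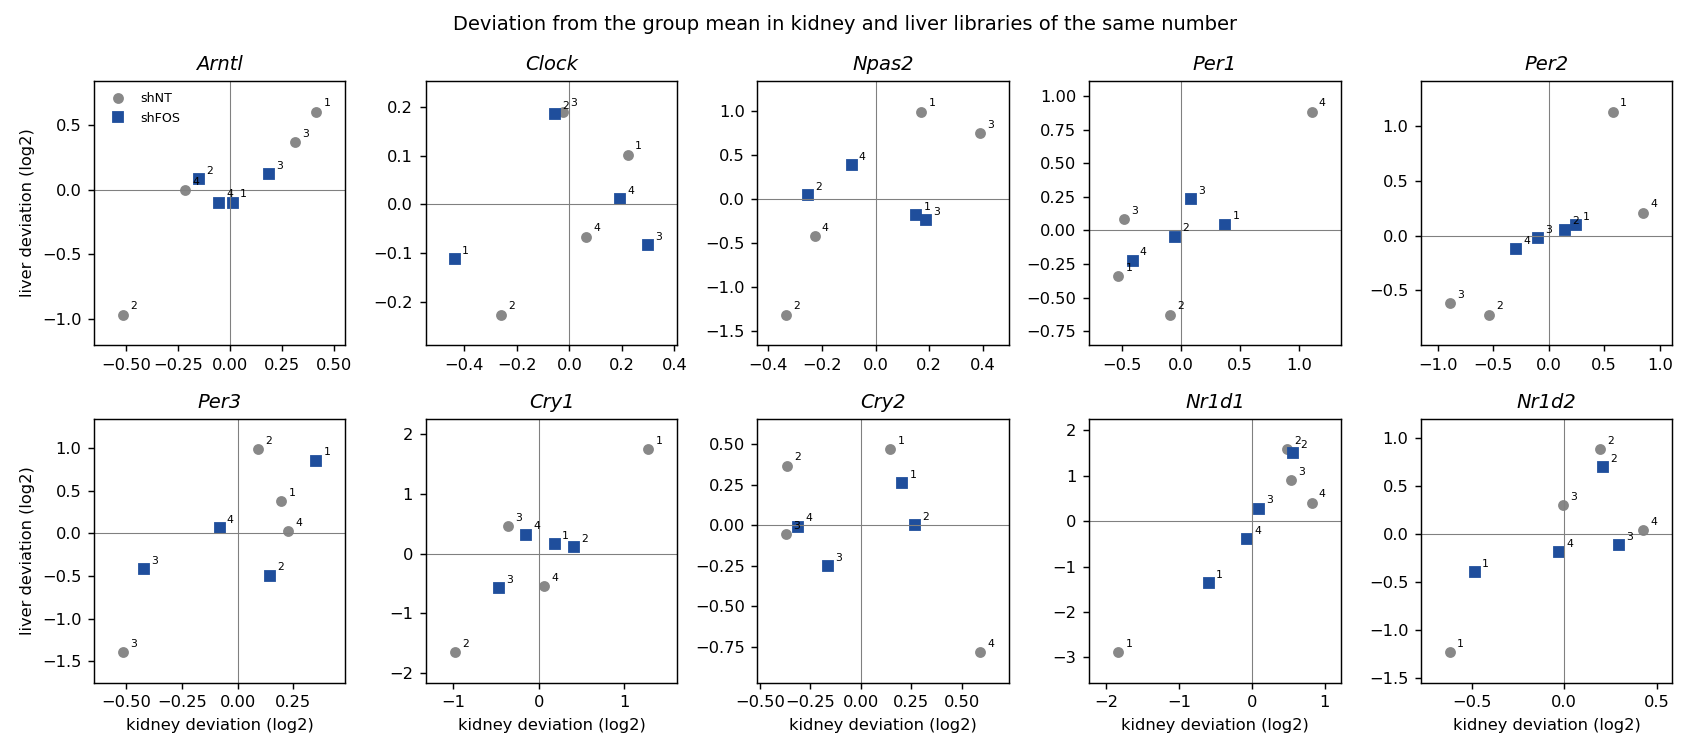
Deviation of log2 CPM from the group mean in the kidney library (x axis) and in the liver library of the same number (y axis), for the 10 core clock genes, with circles for shNT and squares for shFOS and the number beside each point. *Nr1d1* points run along a rising line (r = 0.931) with number 1 at the lower left in both treatments, and *Cry2* shows no such line (r = −0.417).

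The comparison of kidney with liver was not used to choose the genes and was tested in each treatment. For it, CPM were scaled over all 16 libraries, and fold changes came from fits of the 8 libraries of a treatment. In those fits every clock gene that passed the test was lower in kidney. Under alternatives given below, *Nr1d1* passed as higher in shFOS with the library number as a block. Both *Nr1d1* and *Nr1d2* did so without library 2 of the livers. In shNT the genes that passed were 4 of the 10, *Arntl*, *Clock*, *Cry1* and *Cry2*, where 60.0% of the 14875 genes tested passed and 27.7% were lower in kidney. In shFOS they were 6 of the 10, *Arntl*, *Npas2*, *Per1*, *Per2*, *Cry1* and *Cry2*, where 69.5% of the 14628 genes passed and 32.8% were lower in kidney. The share of clock genes that passed was under that of all genes in both treatments. The share that passed as lower in kidney was above that of all genes, a difference that was not tested. In a fit of all 16 libraries it was not above in shFOS, where 3 of the 10 clock genes and 4673 of 15421 genes passed as lower.

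The widest tissue difference was that of *Cry1*. *Cry1* was at 14.97, 3.004, 4.74 and 6.54 CPM in shNT kidneys and at 69.99, 6.51, 28.6 and 14.2 CPM in shNT livers. The groups overlapped, library 1 was highest and library 2 lowest in both tissues, and the log2 fold change of kidney over liver was −2.01 ± 0.74 (SE, n = 4 per group, edgeR, adjusted p = 0.0405). In shFOS it was at 10.8, 12.7, 6.63 and 8.30 CPM in kidneys and at 52.9, 51.1, 31.1 and 59.4 CPM in livers. There every kidney was far below every liver, with a log2 fold change of −2.33 ± 0.24 (edgeR, adjusted p = 1.45e-05). The call in shNT was lost under upper-quartile scaling, without the low-count filter, and without library 1 or 3 of the livers or library 2, 3 or 4 of the kidneys, with adjusted p up to 0.134 (edgeR).

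*Cry2* was at 18.2, 12.6, 12.8 and 25.5 CPM in shNT kidneys and at 49.95, 46.9, 34.8 and 21.1 CPM in shNT livers. In number 4 alone was the kidney above the liver, and the log2 fold change was −1.14 ± 0.31 (edgeR, adjusted p = 0.0101). In shFOS it was at 12.5, 13.03, 9.30 and 8.46 CPM in kidneys and at 41.2, 34.4, 28.4 and 34.4 CPM in livers. These groups were apart, with a log2 fold change of −1.67 ± 0.17 (edgeR, adjusted p = 8.26e-06).

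*Arntl* was at 18.8, 9.72, 17.5 and 12.5 CPM in shNT kidneys and at 46.3, 15.6, 39.4 and 30.7 CPM in shNT livers. Each number was higher in liver, although library 2 of the livers lay within the kidney range, and the log2 fold change was −1.16 ± 0.33 (edgeR, adjusted p = 0.0142). In shFOS it was at 31.2, 27.7, 34.0 and 29.0 CPM in kidneys and at 45.3, 51.4, 52.1 and 45.5 CPM in livers. The groups were apart there, with a log2 fold change of −0.67 ± 0.10 (edgeR, adjusted p = 0.000116). *Npas2* had a mean of 10.8 ± 2.54 CPM in shNT kidneys and 21.9 ± 13.7 CPM in shNT livers (log2 fold change −1.02 ± 0.45, edgeR adjusted p = 0.0796). In shFOS its means were 22.5 ± 3.11 and 35.6 ± 7.61 CPM without overlap (−0.66 ± 0.16, edgeR adjusted p = 0.00353), a call lost in a fit of all 16 libraries (adjusted p = 0.109). *Clock* differed in shNT, at 36.6 ± 5.27 against 53.8 ± 6.66 CPM (−0.55 ± 0.13, edgeR adjusted p = 0.00614), and did not pass in shFOS (−0.14 ± 0.14, edgeR adjusted p = 0.391).

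*Per2* was at 12.4, 11.5, 9.40 and 8.25 CPM in shFOS kidneys and at 21.3, 20.7, 19.3 and 18.4 CPM in shFOS livers. The tissues were cleanly apart, with a log2 fold change of −0.94 ± 0.14 (edgeR, adjusted p = 0.000185, but 0.0532 in a fit of all 16 libraries). In shNT its log2 fold change was −0.19 ± 0.50 (edgeR, adjusted p = 0.768). *Per1* passed in shFOS at −0.41 ± 0.17 (edgeR, adjusted p = 0.0451), a call that upper-quartile scaling, no filter, the fit of all libraries and the loss of any of 6 single libraries each undid, with adjusted p up to 0.323. These 6 were libraries 1, 2 and 3 of the livers and libraries 2, 3 and 4 of the kidneys.

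*Per3* and the nuclear receptors did not pass in either treatment, although with the library number as a block *Nr1d1* (log2 fold change 1.16, edgeR adjusted p = 0.0069) and *Per3* (−0.67, edgeR adjusted p = 0.023) passed in shFOS. *Per3* had log2 fold changes of 0.57 ± 0.42 in shNT (edgeR, adjusted p = 0.266) and −0.74 ± 0.32 in shFOS (edgeR, adjusted p = 0.0605), the latter passing with DESeq2 (adjusted p = 0.0422) and without library 2 or 3 of the livers or library 1 of the kidneys (adjusted p 0.0319, 0.0344 and 0.0417). *Nr1d1* had −0.32 ± 0.78 in shNT and 0.91 ± 0.52 in shFOS (edgeR, adjusted p = 0.743 and 0.1498), and *Nr1d2* −0.14 ± 0.40 and 0.17 ± 0.25 (edgeR, adjusted p = 0.776 and 0.559). Without library 2 of the livers both receptors passed in shFOS, at 1.65 and 0.46 (edgeR, adjusted p = 0.00579 and 0.0448).

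**Figure D5:**
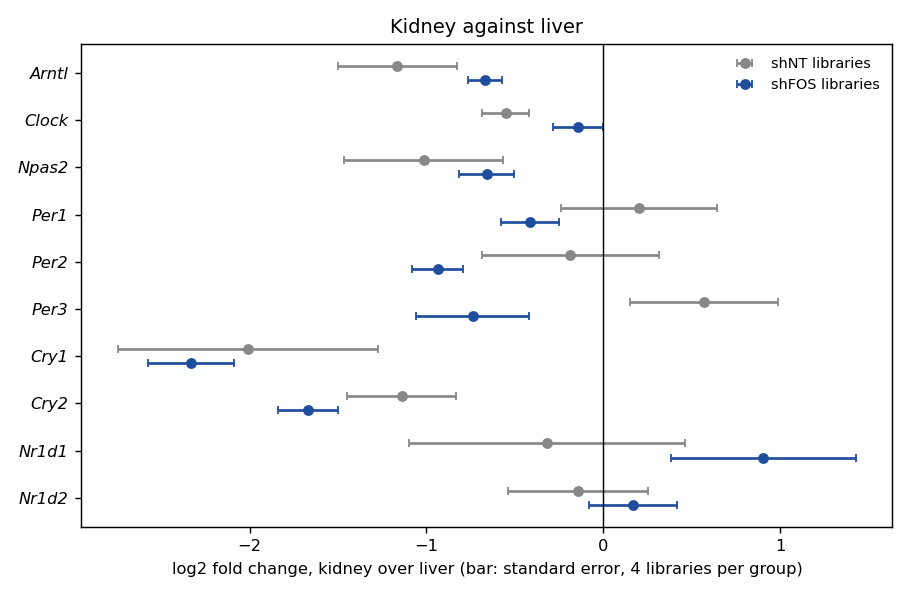
Log2 fold change of kidney over liver for the 10 core clock genes in shNT and in shFOS libraries (edgeR), with bars for the standard error and 4 libraries per group. *Cry1* lies farthest below 0, at −2.01 in shNT and −2.33 in shFOS, and the bars are shorter in shFOS for 9 of the 10 genes.

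Some clock genes share exon bases with a neighbour, and counting ignored strand, so reads on bases shared by 2 counted genes would be ambiguous and were discarded, while reads of a gene that was not counted could be credited to its neighbour. The overlaps were measured in GENCODE M21, which may differ from the annotation used for counting. The exons of *Nr1d1* shared 263 bases (8.55%) with *Thra*, the thyroid hormone receptor gene on the opposite strand, whose log2 fold change on treatment was −0.04 in kidney and 0.23 in liver. Between tissues *Thra* was higher in kidney, by 1.74 ± 0.24 in shNT and 1.46 ± 0.14 in shFOS on the log2 scale (edgeR, adjusted p = 0.000239 and 6.39e-06). The exons of *Cry2* shared 295 bases (4.67%) with *D930015M05Rik*, and those of *Arntl* 33 bases with the antisense gene *Gm45355*, which the count tables do not list.

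Beyond the core, 29 other clock genes were listed as accessory loops, D-box factors, modifiers of clock proteins, cofactors and rhythmic outputs. This list was made with earlier results of these data known, so its p-values between treatments are read as a description. In the kidney 28 could be tested between treatments and 0 passed (edgeR, adjusted p under 0.05), as was true of 0% of the whole table, while 11 had an unadjusted p under 0.05 (31.9% of the table) with 5 higher and 6 lower. DESeq2 called 7 of them, with 3 higher and 4 lower, where it called 17.0% of the table. Without library 1 of the shFOS kidneys edgeR called 11 of the 28, and 27.5% of the 15006 genes then tested. Between the groups 4 did not overlap with higher values in shFOS (*Nfil3*, *Csnk1d*, *Fbxl21* and *Fbxw11*) and 5 with lower values (*Bhlhe41*, *Ciart*, *Dbp*, *Tef* and *Hdac3*), where 17.2% of all genes did not overlap, 9.16% higher and 8.04% lower.

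Of the 4 listed factors that bind D-boxes, *Dbp*, *Tef* and *Nfil3* did not overlap between the kidney groups, while *Hlf*, a relative of *Dbp* and *Tef*, overlapped with a log2 fold change of 0.17 ± 0.14 (edgeR adjusted p = 0.440). *Dbp* was at 4.93, 21.4, 9.51 and 20.3 CPM in shNT kidneys and at 1.29, 4.46, 2.22 and 1.997 CPM in shFOS kidneys. Every shFOS kidney was below every shNT kidney, and the log2 fold change was −2.49 ± 0.53 (SE, n = 4 per group, edgeR adjusted p = 0.0660, DESeq2 0.000162). The exons of *Dbp* shared 539 bases (18.0%) with *Sphk2* on the opposite strand. *Tef*, a related activator, was at 183, 216, 185 and 308 CPM in shNT kidneys and at 140.1, 133, 109 and 115 CPM in shFOS kidneys. It too was lower without overlap, by a log2 fold change of −0.84 ± 0.17 (edgeR adjusted p = 0.0660, DESeq2 0.00119). *Nfil3* was at 22.1, 10.5, 15.4 and 19.8 CPM in shNT kidneys and at 28.5, 28.0, 29.1 and 27.7 CPM in shFOS kidneys. This repressor was higher in every shFOS kidney, with a log2 fold change of 0.74 ± 0.20 (edgeR adjusted p = 0.0666, DESeq2 0.0127).

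*Ciart*, a repressor of the activating pair, had a log2 fold change of −2.54 ± 0.65 (edgeR adjusted p = 0.0660, DESeq2 0.00489), from 1.498 to 5.87 CPM in shNT and 0.0665 to 0.771 CPM in shFOS kidneys. Its counts in shFOS kidneys were 12, 1, 7 and 7, so library 2 lay below the floor of 3 counts. *Fbxw11*, a ubiquitin ligase subunit for PER proteins, had 0.54 ± 0.11 (edgeR adjusted p = 0.0660, DESeq2 0.000638), and *Ncor1*, a corepressor that NR1D1 recruits, 0.34 ± 0.12 (edgeR adjusted p = 0.0913, DESeq2 0.0441).

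In the liver 0 of 28 passed (edgeR) against 0% of the table, 2 had an unadjusted p under 0.05 against 6.74% of the table, and DESeq2 called 0 of them where it called 0.219% of the table. The smallest p values were those of *Sirt1* (log2 fold change −0.46 ± 0.16, edgeR adjusted p = 0.714), *Dbp* (−2.40 ± 0.996, adjusted p = 0.731) and *Bhlhe41* (−1.14 ± 0.52, adjusted p = 0.734) among lower genes and of *Nampt* (0.21 ± 0.14), *Rora* (0.16 ± 0.11) and *Fbxl21* (0.43 ± 0.31) among higher ones. *Dbp* of shNT livers was at 14.9 CPM in library 2 and at 0.990 to 1.30 CPM in the other 3, so its difference rested on that library. The difference between tissues in the treatment contrast passed for 0 of 28 (edgeR), with 2 at an unadjusted p under 0.05. These were *Fbxw11* at 0.51 ± 0.13 (edgeR adjusted p = 0.179) and *Hdac3* at −0.36 ± 0.15 (edgeR adjusted p = 0.268), and the others with the smallest p were *Ncor1* (0.32), *Csnk1a1* (0.21), *Usp2* (−0.78) and *Ciart* (−1.47).

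Between the tissues more of these genes passed. In shNT 15 of 28 differed, beside 60.0% of the table, with 7 higher and 8 lower in kidney, although upper-quartile scaling turned this into 10 and 5. *Usp2*, a ubiquitin protease that acts on clock proteins, was higher in kidney (log2 fold change 2.95 ± 0.36, edgeR adjusted p = 0.000107), as were *Fbxw11* (0.62 ± 0.10, edgeR adjusted p = 0.000418) and *Csnk1e*, a kinase of PER proteins (0.71 ± 0.12, edgeR adjusted p = 0.000972). *Noct*, a rhythmically expressed enzyme, was lower (−4.55 ± 0.30, edgeR adjusted p = 2.44e-06), as were *Rora*, the activator at RORE sites (−1.10 ± 0.14, edgeR adjusted p = 0.000110), and *Nfil3* (−2.48 ± 0.33, edgeR adjusted p = 0.000180). In shFOS 18 of 27 differed, beside 69.5% of the table, with 9 in each direction. They included *Usp2* (2.17 ± 0.21), *Fbxw11* (1.13 ± 0.10) and the cell cycle kinase gene *Wee1* (1.41 ± 0.20), higher in kidney, and *Noct* (−4.67 ± 0.32), *Rora* (−1.18 ± 0.09) and *Nfil3* (−2.07 ± 0.11), lower, each with an adjusted p of 0.000121 or less (edgeR).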

How the data were processed

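Kidney and liver RNA of aged mice was sequenced in 16 libraries, and groups and library numbers were taken from the sample titles. The deposited files hold raw read counts per gene, made by the authors, who trimmed reads with Trimmomatic 0.39, aligned them to mm10 with HISAT2 2.2.1 and counted them with HTSeq 0.12.4 without strand. Each file lists 24984 gene symbols, followed by 5 summary lines, which were left out. Reads on no gene made up 13.4% to 26.7% and ambiguous reads, which were discarded, 1.84% to 2.64%, so values of overlapping genes are uncertain. Identifiers, positions and exon lengths came from GENCODE M21, where 98.2% of the symbols were found.

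Counts were fitted by edgeR 4.0.16 under R 4.3.3 (TMM scaling, filterByExpr, robust quasi-likelihood test, Benjamini-Hochberg adjustment over all genes tested), each tissue or treatment alone and the tissue difference of the treatment contrast over 16 libraries. The study's methods normalized counts with DESeq2, and DESeq2 1.42.0 was an alternative here. Log2 CPM used a prior count of 2. Relations between genes were tested in Python 3.11.15 over 576 exact within-group permutations. The steps were tested on simulated data. The floor for a gene with no reads is 3 counts, or 0.164 to 0.211 CPM, and covers counting error only, since reads were not tagged by molecule. No pair of libraries of a group agreed within sampling noise (chi-square per degree of freedom 6.26 to 351 over 24 pairs).

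Whether library numbers pair samples was checked by the correlation of deviations from the group means over all genes. Kidney and liver of shNT with the same number gave r = 0.123 to 0.401, all over 0.1, and those of shFOS 0.041 to 0.156. Kidney and liver with different numbers gave −0.415 to 0.225 in shNT and −0.185 to 0.124 in shFOS, so the ranges overlapped. Across treatments the same number gave −0.173 to 0.116 in kidney and −0.261 to 0.039 in liver, so numbers do not pair treatments.

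The clock genes, the lists and the tests were chosen with earlier results of these data known. Named are all 10 core clock genes, *Fos*, genes whose exons overlap theirs, of the other clock genes up to 3 per direction and comparison, by smallest p, and the 5 genes with the highest and the 5 with the lowest r with *Arntl*. Other clock genes whose kidney groups did not overlap, *Hlf* and the neighbour of *Dbp* were named after their values were seen. Of the marker lists, kidney, hepatocyte, macrophage, lymphocyte, endothelial and red blood cell markers are given with the results. Adrenal markers summed to 4.15 to 36.2 CPM in kidney and 43.9 to 491 CPM in liver (there almost all *Cyp17a1*), adipocyte markers to 17.6 to 176 and 1.25 to 3.83 CPM, and pancreas markers to 27.3 to 117 and 7.99 to 10.2 CPM. Alternatives were DESeq2, RLE and upper-quartile scaling, no filter, a filter at a mean of 10 counts, all 16 libraries in 1 fit, the library number as a block, a prior count of 0.5 and each library left out in turn. Added after the data were seen were a GC content correction (lowess span 0.3), the relation of libraries with the same number, the groups' overlap with each library left out and the spread of the liver groups without library 4 of shNT.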

Additional observations from a re-analysis of the deposited data

Results flagged for a closer look

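*Per1* in library 4 of the shNT kidneys, at 167 CPM, stood apart from the other 3 shNT kidneys, at 53.5 to 72.7 CPM. Its distance to the nearest library made up 0.831 of the group's range, above Dixon's 95% critical value for 4 samples. It was the 1 value to do so among 40 groups of 4 libraries (10 genes in 4 groups), and chance flags about 1 in 20 groups. The same library also held the highest *Per2* (44.4 CPM), *Per3* (28.3 CPM), *Cry2* (35.2 CPM), *Nr1d1* (92.2 CPM) and *Nr1d2* (103 CPM) among the shNT kidneys. The shNT liver with the same number held the highest *Per1* of its group (64.8 CPM).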

How the results depend on the processing

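In the kidney, edgeR called 0 of 14892 genes between treatments, but 2582 were called with DESeq2, 3 without the low-count filter and 994 in a fit of all 16 libraries, and leaving out 1 library gave 0 to 4126, the highest without library 1 of shFOS. Of the 28 other clock genes, DESeq2 called 7 and the fit of all libraries 3, and leaving out 1 library gave 0 to 11. In the liver DESeq2 called 28 genes, and leaving out 1 library gave 0 to 0 in the whole table and among the other clock genes. The GC content correction called 0 genes in either tissue and kept every direction of the clock genes, with *Clock* in kidney at 0.45. Kidney against liver called 8165 to 9577 genes in shNT (12 to 17 other clock genes) and 9550 to 10520 in shFOS (15 to 17) with 1 library left out, and the tissue difference of the treatment contrast 0 to 448, the highest without number 1. Upper-quartile scaling moved the median log2 fold change of kidney over liver from 0.04 to 0.21 in shNT and from 0.04 to 0.16 in shFOS, no filter moved it to 0.17 and 0.15, and upper-quartile scaling moved the split from 4808 higher and 4123 lower to 5636 and 3239 in shNT and from 5379 and 4793 to 6036 and 4079 in shFOS.

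With the replicate block, 0 genes were called between treatments in either tissue, 9313 between tissues in shNT with the 4 clock genes called without it, and 10036 in shFOS, where *Nr1d1* (log2 fold change 1.16, edgeR adjusted p = 0.0069) and *Per3* (−0.67, adjusted p = 0.023) joined the 6 called without it. The block changed no other call of a clock gene.

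With 1 library left out, the log2 fold change on treatment ran from −0.63 to 0.076 for kidney *Per1* (the highest without library 4 of shNT), from −0.032 to 0.53 for liver *Per1* (the lowest without library 2 of shNT) and from −0.41 to 0.32 for liver *Per2* (the highest without library 1 of shNT), which was 0.00093 with the replicate block. For kidney over liver in shNT it ran from −0.72 to 0.18 for *Nr1d1* and from −0.44 to 0.18 for *Nr1d2* (above 0 without library 2 of the livers or library 1 of the kidneys), from −0.33 to 0.57 for *Per1* (below 0 without library 4 of the kidneys) and from −0.51 to 0.29 for *Per2* (above 0 without library 1 of the livers or library 3 of the kidneys), and *Nr1d2* was 0.024 under upper-quartile scaling. The tissue difference of the treatment contrast ran from −0.51 to 0.050 for *Cry1* and −0.87 to 0.033 for *Cry2* (above 0 without number 4) and from −0.0071 to 0.66 for *Npas2* (below 0 without number 1). Without the 2 libraries farthest in *Arntl*, libraries 1 and 2 of shNT, its r turned to −0.825 with *Per2* and −0.769 with *Cry1* in kidney, and in liver to −0.487 with *Per1*, −0.738 with *Per2*, 0.380 with *Cry2*, 0.602 with *Nr1d1* and 0.526 with *Nr1d2*. The cause of these changes was not tested. With 4 libraries a group, a single library decided several of the values above, and the lowest count of a core clock gene was 35.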
